A study of Homo sapiens with 6 samples.

Results

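NOLC1 and 9 other genes of the nucleolus were followed in SW480, a long-established line of human colorectal cancer cells. The cells had received an siRNA against ITGB4 (si_ITGB4, 3 libraries) or a negative control siRNA (si_NC, 3 libraries). ITGB4 encodes the integrin β4 subunit. The labels give the genotype of both groups as WT, and the series calls the libraries of a group biological replicates. They give no siRNA sequence, no second siRNA against ITGB4 and no time after transfection, and all 6 libraries come from a single cell line. The 10 genes are rows of a deposited table of 58735 genes, found by symbol. They were chosen from measured values of this same comparison: NOLC1 was picked because its level differed between the groups, and its paralog TCOF1 and the proteins of small nucleolar ribonucleoproteins were set beside it to see if NOLC1 differed alone. The differences between the groups are therefore given for these 10 genes as descriptions, without p-values. How many of them passed the thresholds used for all genes is given beside the share of all genes, and supports nothing. The libraries analysed hold no untransfected cells, so a level raised with ITGB4 siRNA and a level lowered with control siRNA cannot be told apart, and "higher" means relative to control siRNA only.

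Small nucleolar RNAs (snoRNAs) guide chemical modification and processing of ribosomal RNA in the nucleolus. Box H/ACA snoRNAs carry the pseudouridine synthase dyskerin (DKC1) with the small subunits NHP2, GAR1 and NOP10, while box C/D snoRNAs carry the methyltransferase fibrillarin (FBL) with NOP56, NOP58 and SNU13. NOLC1, also called Nopp140, is a heavily phosphorylated protein of nucleoli and Cajal bodies that binds both kinds of particle, and TCOF1 encodes treacle, a protein of related build that acts in ribosomal RNA transcription and is mutated in Treacher Collins syndrome. Nucleolin (NCL) and nucleophosmin (NPM1) are abundant nucleolar proteins of ribosome assembly.

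The libraries held 13715266 to 15496274 reads recovered from the FPKM values (reads scaled to gene length and to a size factor of the library, as deposited). All 10 genes were well covered, from 533 reads for GAR1 to 25251 reads for NPM1 in a library. Counting error alone was 0.70% (NPM1) to 4.33% (GAR1) of the value in the library with the fewest reads, and the spread between the 3 libraries of a group was 1.08% to 13.7% of the mean. ITGB4 fell to 39.0 ± 1.80 FPKM with its siRNA, against 69.3 ± 5.26 FPKM with control siRNA (SD, n = 3 each), a log2 difference of -0.81 with an adjusted p of 0.0148 from limma. The difference was -0.87 to -0.76 under 13 other settings, and 6 of these lost the call (adjusted p up to 0.137), as listed in the closing section. Of 6 colon epithelial markers, KRT8, KRT18, EPCAM, CDX2 and CDH1 averaged between 6.25 FPKM (CDH1) and 567 FPKM (KRT18), and VIL1 was low at 0.71 FPKM. The summed level of fibroblast markers was at most 0.81 FPKM in any library, and those of endothelial and leukocyte markers were at most 0.242 FPKM.

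NOLC1 (ENSG00000166197, GRCh38 chr10:102152176-102163871, plus strand) stood at 89.9, 97.3 and 93.8 FPKM in the 3 ITGB4 siRNA libraries, against 57.4, 67.6 and 63.9 FPKM in the 3 control siRNA libraries. Every ITGB4 siRNA library lay above every control library. The means were 93.7 ± 3.72 FPKM with ITGB4 siRNA and 62.95 ± 5.16 FPKM with control siRNA (SD, n = 3 each), a difference of 48.8%. In such bulk samples a change in the share of cells and a change in RNA per cell cannot be told apart. In recovered reads these levels were 4944, 5904 and 5801 with ITGB4 siRNA and 3371, 3976 and 3865 with control siRNA. On the log2(FPKM + 1) scale the fold change was 0.57 (SE 0.067), the 97th highest of 12871 genes tested, and 9 of the 7295 genes with a mean of at least 5 FPKM, NOLC1 among them, had a log2 fold change at least that high. Leaving out any 1 library moved this value between 0.50 (without control siRNA replicate 1) and 0.62 (without control siRNA replicate 2).

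**Figure D1:**
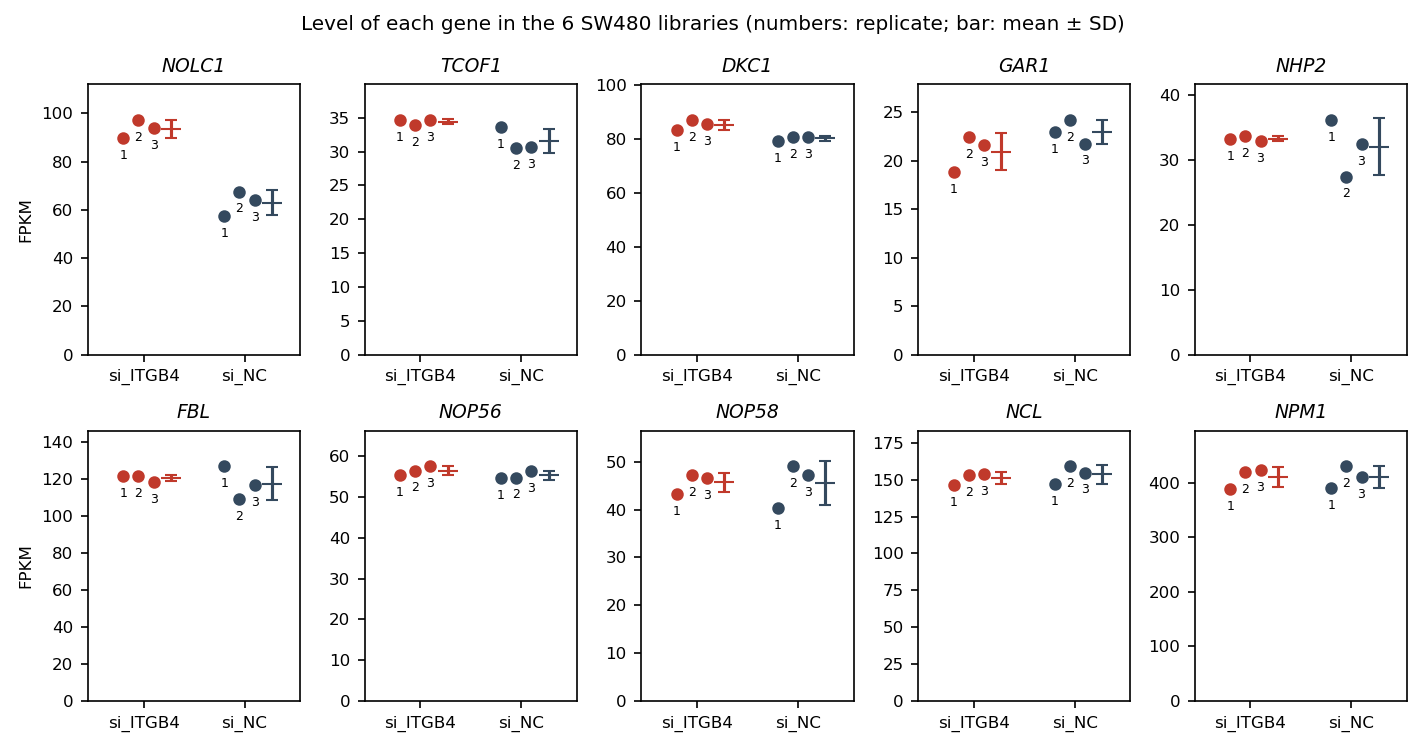
FPKM (y axis, from 0) of each of the 10 genes in the 3 ITGB4 siRNA libraries (red, left) and the 3 control siRNA libraries (dark blue, right), with the replicate number under each point and the mean ± SD beside it. The NOLC1 values are 89.9 to 97.3 with ITGB4 siRNA and 57.4 to 67.6 with control siRNA, and in 7 of the 10 genes the points of the groups overlap. Of all genes tested, 5.75% had groups apart and higher with ITGB4 siRNA and 5.36% apart and lower, so most genes overlap.

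TCOF1 (ENSG00000070814, chr5:150357629-150400308), the paralog of NOLC1, was at 34.7, 34.0 and 34.7 FPKM with ITGB4 siRNA and at 33.6, 30.5 and 30.7 FPKM with control siRNA. The groups did not overlap, but control replicate 1 lay close below the ITGB4 siRNA values. The ratio of the means was 1.09, a log2 fold change of 0.12 (SE 0.050). The ratio of NOLC1 to TCOF1 within a library, both as FPKM, was 2.59, 2.87 and 2.71 with ITGB4 siRNA and 1.71, 2.22 and 2.08 with control siRNA, again without overlap.

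Among the box H/ACA proteins, DKC1 (ENSG00000130826, chrX:154762742-154777689), the enzyme of the particle, was at 83.3, 87.0 and 85.3 FPKM with ITGB4 siRNA and at 79.0, 80.6 and 80.7 FPKM with control siRNA. The groups lay apart by a small margin, with a difference of 6.33% and a log2 fold change of 0.09 (SE 0.038). GAR1 (ENSG00000109534, chr4:109815510-109824740), which helps the enzyme to bind and release its RNA target, was at 18.8, 22.4 and 21.6 FPKM with ITGB4 siRNA and at 22.9, 24.2 and 21.7 FPKM with control siRNA. It was the one of the 10 with the lowest fold change (-0.13 on the log2 scale, SE 0.075), and its groups overlapped. NHP2 (ENSG00000145912, chr5:178149460-178153967), an RNA-binding subunit, was at 33.3, 33.6 and 32.9 FPKM with ITGB4 siRNA, inside the wide range of its control values of 36.2, 27.4 and 32.5 FPKM. DKC1 and NHP2 had values above 0 on the log2 scale (0.09 and 0.06) and GAR1 a value below 0. The ratio of GAR1 to DKC1 within a library was 0.226 to 0.257 with ITGB4 siRNA and 0.269 to 0.300 with control siRNA, without overlap. The ratio of NHP2 to DKC1 overlapped, at 0.386 to 0.400 with ITGB4 siRNA and 0.340 to 0.458 with control siRNA. So did the ratios of NOP58 to NOP56, FBL to NOP56, FBL to NOP58 and NPM1 to NCL. How often such ratios lie apart over all genes was not counted.

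All 3 box C/D proteins had groups that overlapped, as in all but 5.75% (higher) and 5.36% (lower) of all genes tested. FBL (ENSG00000105202, chr19:39834458-39846414), the methyltransferase, was at 121.4, 121.3 and 118.4 FPKM with ITGB4 siRNA and at 126.8, 108.9 and 116.5 FPKM with control siRNA (log2 fold change 0.04, SE 0.059). NOP56 (ENSG00000101361, chr20:2652145-2658393), a scaffold subunit, was at 55.4, 56.5 and 57.6 FPKM with ITGB4 siRNA and at 54.6, 54.8 and 56.5 FPKM with control siRNA (0.03, SE 0.039). In FBL the control values enclosed the ITGB4 siRNA values, and in NOP56 the groups shared the upper part of the control range. NOP58 (ENSG00000055044, chr2:202265716-202303666), the paralogous scaffold, was at 43.3, 47.2 and 46.5 FPKM with ITGB4 siRNA and at 40.3, 49.05 and 47.2 FPKM with control siRNA (0.01, SE 0.079), so the control values enclosed all 3 ITGB4 siRNA values.

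The groups also overlapped in both abundant nucleolar proteins, as in most genes tested. NCL (ENSG00000115053, chr2:231453531-231483641) averaged 150.9 ± 4.14 FPKM with ITGB4 siRNA and 153.5 ± 6.22 FPKM with control siRNA (SD, n = 3 each; log2 fold change -0.02, SE 0.045). NPM1 (ENSG00000181163, chr5:171387116-171411137), with the highest FPKM of the 10, averaged 410.7 ± 18.9 FPKM with ITGB4 siRNA and 410.1 ± 20.2 FPKM with control siRNA (SD, n = 3 each; 0.00, SE 0.053). The signs of such small values rest on single libraries. FBL, NHP2 and NCL changed sign without control siRNA replicate 2 (-0.01, -0.04 and 0.00), and NOP58 and NPM1 changed sign without control siRNA replicate 1 (-0.07 and -0.03) and also without ITGB4 siRNA replicate 2 or 3.

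**Figure D2:**
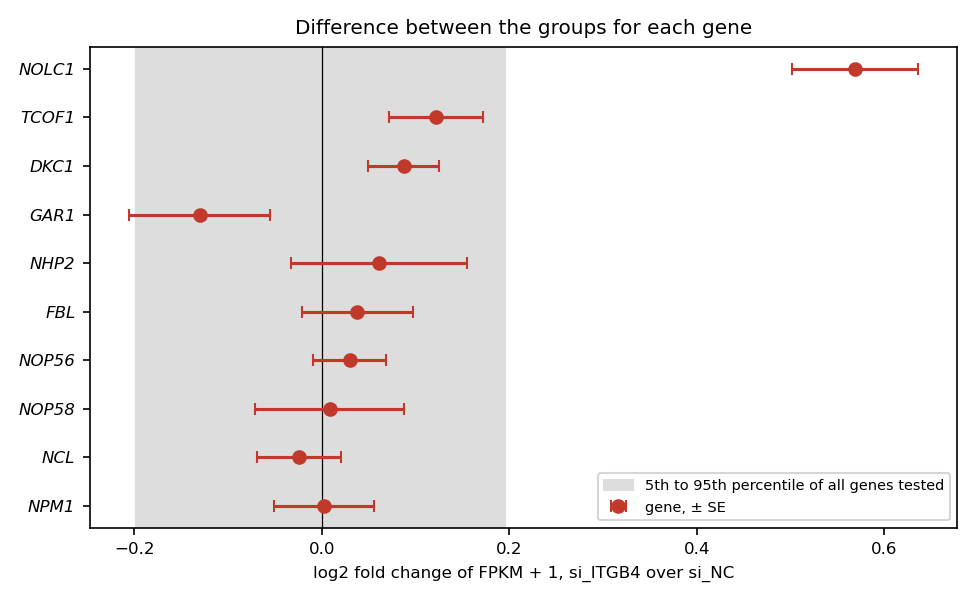
Log2 fold change of FPKM + 1 (x axis, ITGB4 siRNA over control siRNA) of each gene with its SE, from the fit over all 12871 genes; the grey band runs from the 5th (-0.20) to the 95th (0.20) percentile of all genes tested. NOLC1 (0.57) is the one gene of the 10 whose point lies outside the band. The band holds most genes by the way it is drawn, and NOLC1 was picked for its difference.

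Set side by side, NOLC1 was at 0.57 and the other 9 genes ran from -0.13 (GAR1) to 0.12 (TCOF1), with a median of 0.03. All 12871 genes tested had a median of -0.0034. The summed FPKM of the 9 was 958 ± 28.3 with ITGB4 siRNA and 949 ± 17.4 with control siRNA (SD, n = 3 each), and NOLC1 made up 8.91% ± 0.155 of the sum of the 10 with ITGB4 siRNA and 6.22% ± 0.374 with control siRNA. At an adjusted p under 0.05, limma called 0 of the 10 genes, against 0.0466% of all genes tested (6 genes; 750 at an unadjusted p under 0.05). Limma-voom on the recovered reads called 1 of the 10, NOLC1, against 0.210% of all genes (27 genes). When only genes with a mean of at least 5 FPKM were tested, limma also called NOLC1, with 7 of 7295 genes called in all. NOLC1, TCOF1 and DKC1 had groups without overlap and were higher with ITGB4 siRNA, as were 5.75% of all genes tested. None of the 10 genes lay wholly below the controls, which was so for 5.36% of all genes. Because the genes were picked with this comparison known, nothing is read from these counts.

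Relative to each of the other 9 genes in its own library, NOLC1 was higher in all 3 ITGB4 siRNA libraries than in any control library. NOLC1 was picked for its difference and the other 9 genes differed little. The 9 ratios therefore largely restate that difference and are not separate results. The ratio to NPM1 was 0.231, 0.232 and 0.222 with ITGB4 siRNA and 0.147, 0.157 and 0.156 with control siRNA. The ratio to NOP58 was 2.08, 2.06 and 2.02 with ITGB4 siRNA and 1.42, 1.38 and 1.35 with control siRNA. These were tighter than the ratio to NHP2, which was 2.70, 2.89 and 2.85 with ITGB4 siRNA and 1.58, 2.46 and 1.97 with control siRNA.

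**Figure D3:**
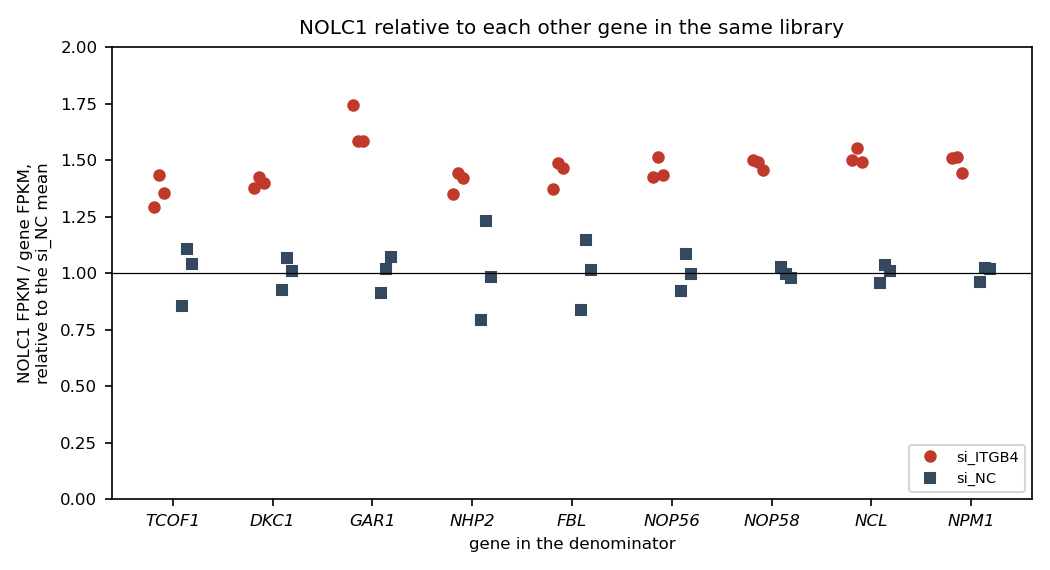
Ratio of NOLC1 FPKM to the FPKM of each other gene in the same library (y axis, from 0), divided by the control siRNA mean of that ratio, with ITGB4 siRNA libraries as red circles and control siRNA libraries as dark squares. For every gene in the denominator the 3 circles lie above the 3 squares, with the widest spread of squares for NHP2. The ratios share the NOLC1 values, for which NOLC1 was picked.

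The replicates of the control group were spread in opposite ways in different genes. Taking deviations from the group mean on the log2 scale, control replicate 1 was low for NOLC1 (-0.13), NOP58 (-0.17), NPM1 (-0.07) and NCL (-0.06). The same library was high for NHP2 (0.18), FBL (0.11) and TCOF1 (0.09), and control replicate 2 had the opposite signs in these 7 genes. NOP56 was slightly below its mean in both control libraries (-0.02 and -0.01). With ITGB4 siRNA the deviations of FBL (0.01, 0.01 and -0.02) and NHP2 (0.00, 0.02 and -0.02) did not run opposite to those of NOLC1 (-0.06, 0.06 and 0.00). Over the 6 libraries the within-group Pearson correlation with NOLC1 was 0.98 for NOP58, 0.95 for NCL and 0.89 for NPM1, but -0.92 for TCOF1, -0.89 for FBL and -0.84 for NHP2. The largest deviations of NOLC1 were those of control replicates 1 and 2. The correlation was 0.78 for DKC1, 0.52 for GAR1 and 0.34 for NOP56. Of 6816 coding genes compared, 512 had a within-group correlation with NOLC1 over 0.95, so such values are not particular to these genes. How many had a correlation as low as those of TCOF1, FBL and NHP2 was not counted. Between replicates NOLC1 and NOP58 were thus high and low in the same libraries, while between the groups NOP58 averaged 45.7 FPKM with ITGB4 siRNA and 45.5 FPKM with control siRNA.

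The 5 coding genes of at least 5 FPKM whose log2 values over the 6 libraries were most like those of NOLC1, out of 6816 compared, were DAG1, MSN, TPM4, IGF2R and MRFAP1, with Pearson correlations of 0.989 to 0.994. Their log2 fold changes were 0.12 (DAG1), 0.05 (MSN), 0.64 (TPM4), 0.11 (IGF2R) and 0.19 (MRFAP1), beside 0.57 for NOLC1. Such a correlation follows how cleanly the groups lie apart and not the size of the difference. A correlation over 0.95 was reached by 47 genes. By deviations within groups the 5 most like NOLC1 were PABPC1, HIF1A, USP12, ABHD13 and CARNMT1, and 512 genes were over 0.95. Among the other 9 nucleolar genes DKC1 had the highest correlation with NOLC1 over the 6 libraries (0.96), with a log2 fold change of 0.09. TCOF1 (0.64) and NOP56 (0.62) followed, and GAR1 was opposite (-0.48).

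The order of levels among the 10 genes depends on the gene length used. By the authors' FPKM the order with ITGB4 siRNA was NPM1, NCL, FBL, NOLC1, DKC1, NOP56, NOP58, TCOF1, NHP2 and GAR1. With control siRNA NOLC1 (62.95 FPKM) came after DKC1 (80.1), and TCOF1 (31.6 ± 1.75) and NHP2 (32.1 ± 4.40) did not differ beyond their spread. The table's length for TCOF1 is 11439 bases, 2.25 times its longest coding transcript in GENCODE 29 (5095 bases), whereas for NOLC1 it is 3970 against 3967 bases. Per kilobase of the longest coding transcript, NOLC1 would rank 6th with ITGB4 siRNA and 8th with control siRNA, at 93.8 and 63.0 FPKM, and TCOF1 would stand at 77.3 and 70.96 FPKM.

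The surrounding genes and copies were looked at for reads that could be shared. No other gene of the table overlaps NOLC1 or TCOF1. NHP2 overlaps RMND5B on the opposite strand (4.74 ± 0.0763 FPKM with ITGB4 siRNA, 4.63 ± 0.290 with control siRNA; SD, n = 3 each), and since the labels do not state whether the libraries keep strand, reads of the shared stretch cannot be told apart. NPM1 has 45 pseudogenes in the table, of which 18 had reads, and these reads came to 1.73% to 2.30% of those of NPM1 in a library. How the counting treated reads shared between such copies is not given. The level of NPM1 is therefore uncertain by an amount that these reads do not bound. Inside the 10 genes lie 14 annotated snoRNA genes, 5 in NOP56, 4 in NOP58, 3 in NCL and 2 in DKC1. Any read was found in 5 of these 14, with the most for SNORD11 in NOP58, at 2, 6 and 9 reads with ITGB4 siRNA and 3, 3 and 7 with control siRNA. The libraries were made with poly-T beads, and differences in the snoRNAs themselves were not detectable at these counts.

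The genes beside NOLC1 on chromosome 10 had smaller values. None of the 5 nearest tested genes on each side had groups without overlap, beside 5.75% higher and 5.36% lower of all genes tested, and their log2 fold changes ran from -0.16 (NFKB2) to 0.14 (RPARP-AS1), with 0 of the 10 called by limma (0 at an unadjusted p under 0.05). PPRC1, a transcriptional coactivator gene that ends just before NOLC1 begins, was at 17.3 ± 0.982 FPKM with ITGB4 siRNA and 16.4 ± 0.0965 FPKM with control siRNA (SD, n = 3 each).

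Other genes of the same machinery were described from 6 lists written by function, with 108 tested genes in all. Both limma and limma-voom called 0 of the 108, and by limma 0 of them had an unadjusted p under 0.05. Over all genes tested limma called 0.0466%, limma-voom called 0.210%, and 5.83% had an unadjusted p under 0.05 by limma. Few or no adjusted calls would therefore be found in 108 genes at the share of all genes. The unadjusted count of 0 lies below the share of all genes, and this difference was not tested. Of these genes 54 had a log2 fold change above 0 and 54 below 0, with a median of -0.0011, beside -0.0034 over all genes tested, of which 48.5% lay above 0. The values ran from -0.16 (PNO1) to 0.14 (CD3EAP). Groups lay apart and higher with ITGB4 siRNA in 6 of them (5.56%), and apart and lower in 3 (2.78%), against 5.75% and 5.36% of all genes.

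The remaining core subunits of the particles had overlapping groups (here and in the next paragraph, values are means ± SD over 3 libraries a group). NOP10 of the H/ACA particle was at 56.6 ± 3.33 FPKM with ITGB4 siRNA and 58.8 ± 2.16 FPKM with control siRNA. SNU13 of the C/D particle was at 41.1 ± 2.12 FPKM with ITGB4 siRNA and 40.2 ± 2.14 FPKM with control siRNA. The 11 tested factors of snoRNP assembly had a median of -0.01, with 5 above and 6 below 0, and the smallest p values of this list were those of NUFIP1 and NAF1. NUFIP1, which helps to assemble C/D particles, was at 7.44 ± 0.591 FPKM with ITGB4 siRNA and 8.26 ± 0.772 FPKM with control siRNA (log2 fold change -0.13, limma adjusted p = 0.981). NAF1, an assembly factor of H/ACA particles, was at 3.07 ± 0.0739 FPKM with ITGB4 siRNA and 3.32 ± 0.322 FPKM with control siRNA (log2 fold change -0.08, limma adjusted p = 0.998). Of 7 tested paralogs and partners, among them the Cajal body protein coilin (COIL) and subunits of the kinase CK2, which phosphorylates NOLC1, the median was -0.04, with 3 above and 4 below 0. CSNK2A2, a catalytic subunit of CK2, was at 14.2 ± 0.374 FPKM with ITGB4 siRNA and 13.4 ± 0.767 FPKM with control siRNA (log2 fold change 0.09, limma adjusted p = 0.983). NPM2, a paralog of NPM1, was at 4.54 ± 0.375 FPKM with ITGB4 siRNA and 4.21 ± 0.377 FPKM with control siRNA (log2 fold change 0.09, limma adjusted p = 0.998).

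The 15 genes of RNA polymerase I and its initiation factors, which transcribe ribosomal RNA, had a median of -0.01, with 7 above and 8 below 0. RRN3, an initiation factor, was at 17.7 ± 0.503 FPKM with ITGB4 siRNA and 19.4 ± 0.961 FPKM with control siRNA (log2 fold change -0.12, limma adjusted p = 0.854). CD3EAP, a polymerase subunit, was at 3.45 ± 0.163 FPKM with ITGB4 siRNA and 3.04 ± 0.155 FPKM with control siRNA (log2 fold change 0.14, limma adjusted p = 0.920). In the 35 tested genes of small subunit assembly, which act on the ribosomal RNA precursor, the median was -0.0034, with 17 above and 18 below 0. UTP3, one of these assembly factors, was at 12.9 ± 0.756 FPKM with ITGB4 siRNA and 14.2 ± 0.137 FPKM with control siRNA (log2 fold change -0.13, limma adjusted p = 0.854). PNO1, another of them, was at 20.4 ± 1.43 FPKM with ITGB4 siRNA and 22.8 ± 1.30 FPKM with control siRNA (log2 fold change -0.16, limma adjusted p = 0.856). The 38 tested large subunit assembly factors had a median of 0.02, with 21 above and 17 below 0. NOP16, a factor of this list, was at 19.6 ± 0.802 FPKM with ITGB4 siRNA and 18.1 ± 0.341 FPKM with control siRNA (log2 fold change 0.10, limma adjusted p = 0.910). WDR74, also of this list, was at 16.6 ± 0.415 FPKM with ITGB4 siRNA and 15.3 ± 0.841 FPKM with control siRNA (log2 fold change 0.11, limma adjusted p = 0.926).

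**Figure D4:**
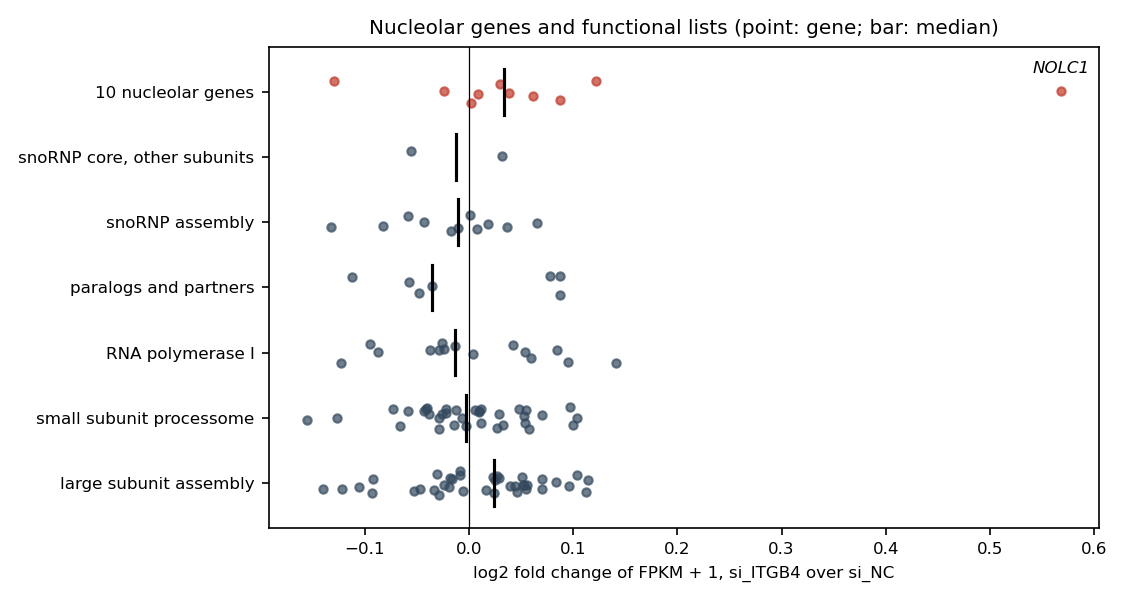
Log2 fold change of FPKM + 1 (x axis, ITGB4 siRNA over control siRNA) of the 10 nucleolar genes (red) and of each tested gene of the 6 functional lists (dark blue), with the list median as a bar. The lists lie between -0.16 and 0.14, and NOLC1 stands at 0.57.

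In all, 4 words of 7 bases were looked for in 3′ UTRs: TCGGAGA, its neighbour CGGAGAA, then ATTGGAT, and its neighbour TTGGATA. Of these, NOLC1 holds TCGGAGA, and none of the other 9 genes does. Since 2.19% of tested coding genes hold TCGGAGA, its absence from the other 9 genes is what most genes show. TPM4 is shown because it had the highest fold change of the genes with TCGGAGA. The words had been found earlier by a scan of these same fold changes, so their link to the fold changes is not independent evidence, and the values here are a description. The longest annotated 3′ UTR of each coding gene (GENCODE 29, GRCh38) was searched on the strand of the transcript. It was taken as all exon bases after the last base annotated as coding. Lengths and positions therefore count the stop codon where it is annotated apart from the coding bases. NOLC1 holds TCGGAGA once, starting at base 38 of a 3′ UTR of 1605 bases, and the word is in all 4 of its coding transcripts with a 3′ UTR. NCL holds TTGGATA once, at base 1344 of 1663, and the other 8 genes hold none of the 4 words. The word of NOLC1 is also in TPM4, an actin-binding tropomyosin, at base 354 of 1809. The stretches around these words follow, 5′ to 3′, with the word in capitals: NOLC1 at chr10:102162293-102162322 (plus strand), TPM4 at chr19:16101482-16101511 (plus strand) and NCL at chr2:231453832-231453861 (minus strand).
NOLC1: aagggtgatgaTCGGAGActacttactttc
TPM4: aatattttgtaTCGGAGAagctttgagcac
NCL: aactgtgatacTTGGATAagcttagaagga

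The NOLC1 and TPM4 stretches share the word in capitals, since TPM4 was chosen among the genes that hold it. CGGAGAA, which overlaps TCGGAGA by 6 bases, is in TPM4 but not in NOLC1. TCGGAGA was in the 3′ UTR of 232 of 10574 tested coding genes (2.19%). CGGAGAA was in 281 of these genes (2.66%), ATTGGAT in 1086 (10.3%), and TTGGATA, which overlaps it by 6 bases, in 1201 (11.4%). These 232 genes had a median log2 fold change of 0.04, against -0.01 for the 10342 genes without the word, and 155 of them (66.8%) lay above 0, against 47.1% of the genes without it. Groups lay apart and higher with ITGB4 siRNA in 45 of the 232 (19.4%), against 5.50% of the genes without the word, while the shares lying apart and lower were 5.17% and 5.58%. The fold changes of the 232 were highest for TPM4 and NOLC1, followed by HABP4, G3BP2 and SETD7. TPM4 was at 69.9, 72.9 and 71.5 FPKM with ITGB4 siRNA and at 43.0, 47.8 and 45.4 FPKM with control siRNA, a log2 fold change of 0.64 (SE 0.0495) beside the 0.57 of NOLC1. For TTGGATA, the word in NCL, the genes that hold it had a median of -0.03, against -0.0024 without it. Of the genes with TTGGATA 37.3% lay above 0, against 48.8% without it, and 11.7% lay apart and lower, against 4.78%. For no word were the genes with and without it matched for 3′ UTR length, base composition or level. NCL itself was at -0.02, overlapped between the groups and changed sign without control siRNA replicate 2. Short matches to an siRNA can lower the level of other transcripts. The sequences of both siRNAs are not given in the sources used here, so whether the word matches either one, and has a part in the level of NOLC1 with ITGB4 siRNA or with control siRNA, was not tested.

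**Figure D5:**
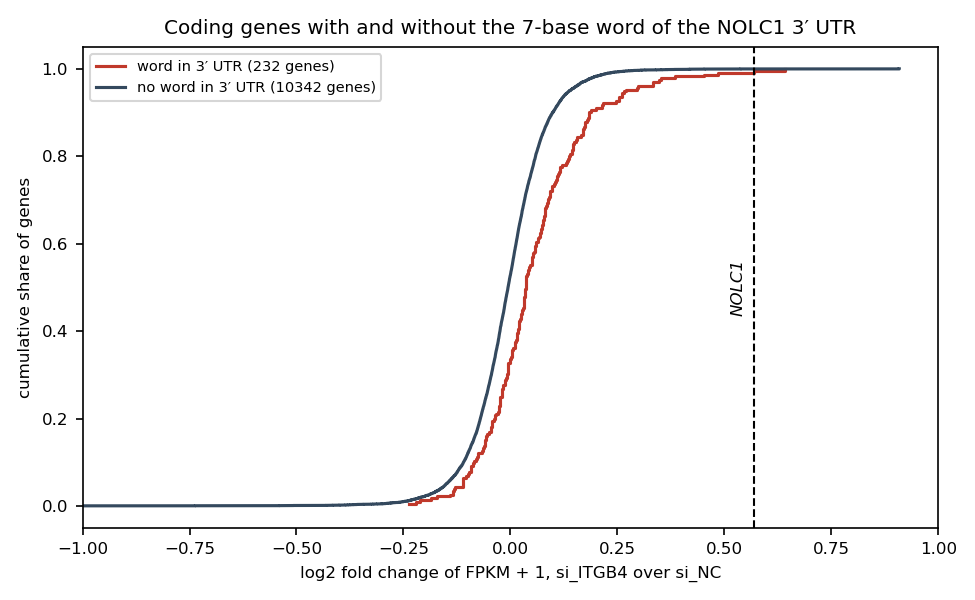
Cumulative share of tested coding genes (y axis) by log2 fold change of FPKM + 1 (x axis, shown from -1 to 1, ITGB4 siRNA over control siRNA) for the 232 genes with the 7-base word of NOLC1 in the 3′ UTR (red) and the 10342 genes without it (dark blue). The red curve lies to the right of the blue one (medians 0.04 and -0.01), and the dashed line marks NOLC1 at 0.57. The genes with and without the word were not matched for 3′ UTR length.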

How the data were processed

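The authors deposited FPKM per gene on GRCh38, with gene lengths, per the file headers; DESeq2 and edgeR are listed, with no role, in the submitters' processing notes. An aligner, a counting tool and strandedness are not given in the sources used here. FPKM times gene length fell on whole reads (tolerance 0.01) for 100% of values above 0, and the implied library sizes were proportional to median-of-ratios size factors of those reads. Genes with a mean of at least 1 FPKM were tested on log2(FPKM + 1) with limma 3.58.1 (R 4.3.3, variance trend, two-sided, Benjamini-Hochberg over all genes, threshold 0.05). For a check, the test was run on simulated data. These were independent normal values with the variances that limma had fitted, so the check cannot show how the test behaves on these libraries. Limma-voom used the recovered reads. Groups came from the sample titles. The p-values weigh the difference between the groups against the spread between libraries of a group, with each gene's variance drawn toward that of all genes. In all, 99.9% of the table's genes found in GENCODE 29 had its coordinates, the 10 nucleolar genes included. The genes and lists were chosen with earlier results of these data known. Named were the 10 genes, ITGB4, per list the 2 genes with the smallest p, the 5 most like NOLC1, and overlapping genes; TPM4's sequence, the genes next to NOLC1, and HABP4, G3BP2 and SETD7 were added after values were seen.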

Additional observations from a re-analysis of the deposited data

How the results depend on the processing

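NOLC1 stayed between 0.50 and 0.62 and the median of the other 9 genes between 0.02 and 0.04 (log2) under all 13 alternatives (pseudocount 0.1, no filter, at least 5 FPKM, TPM, median-of-ratios rescaling, limma-voom, the replicate block and leaving out each library); each moved by less than 1 SD between replicates. Of these, the 2 filters, the block and the rescaling (1 common factor of 1.00315) cannot move a fold change by more than rounding, so they bear on the calls only. Genes called depended on the setting: 0 genes (0 higher, 0 lower) with no filter on low values (1356 of 31956 at an unadjusted p under 0.05) and 0 with the replicate block (1064 unadjusted), where NOLC1 was also at 0.57. Limma-voom called 27 genes, 12 higher and 15 lower; the cause was not tested. Leaving out 1 library gave 0 to 7 genes called, 0 to 4 higher and 0 to 4 lower, with 0 without any 1 of the ITGB4 siRNA libraries (545 to 604 unadjusted) and 3, 1 of them higher, without control siRNA replicate 3; the cause was not tested. ITGB4 lost its call with no filter (adjusted p = 0.0618), with the replicate block (0.0564), without ITGB4 siRNA replicate 1, 2 or 3 (0.0709, 0.137 and 0.0968) and without control siRNA replicate 3 (0.0996), all from limma. Of the 10 genes, limma-voom and the filter at 5 FPKM each called 1 (NOLC1), beside 27 of 12871 and 7 of 7295 genes in all. No setting called a gene of the functional lists. Whether replicate numbers pair the libraries is not shown: deviations of same-numbered libraries correlated at 0.17, 0.10 and -0.01. The snoRNA genes had 0 to 9 reads a library, too few to compare groups.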
